A study of Mus musculus with 6 samples.

Results

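The nuclear genes of oxidative phosphorylation were examined in the pancreas of mice with caerulein-induced acute pancreatitis (AP), with and without polyI:C pretreatment. Members were the protein-coding genes whose symbol begins with Nduf, Uqcr, Cox4, Cox5, Cox6, Cox7, Cox8 or Atp5, together with Sdha, Sdhb, Sdhc, Sdhd, Uqcc1, Uqcc2, Cyc1 and Cycs. The rule matched 98 genes of GENCODE M21, of which 97 were among the 22556 genes listed for the mice (17290 of them protein-coding), and a second identifier of Atp5o was not analysed here. By complex, 36 members belong to complex I, 4 to complex II, 9 to complex III, 20 to complex IV and 17 to complex V, 10 are assembly factors and 1 is cytochrome c.

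RNA from the whole pancreas of 6 wild-type C57BL/6 mice, all 8 weeks of age, was sequenced in 3 groups of 2. Saline mice were the controls. AP mice received caerulein, a cholecystokinin analogue that overstimulates the enzyme-secreting acinar cells. The polyI:C-pretreated AP mice received polyI:C, a synthetic double-stranded RNA that mimics viral RNA, and then caerulein. No group received polyI:C without caerulein, so an effect of polyI:C on the resting pancreas cannot be read from these libraries.

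Oxidative phosphorylation makes most of the ATP of a resting cell. Complex I (NADH dehydrogenase) and complex II (succinate dehydrogenase) pass electrons through ubiquinone to complex III, cytochrome c carries them to complex IV (cytochrome c oxidase), and complex V (ATP synthase) uses the proton gradient that results. Most subunits are encoded in the nucleus and imported, while a small core set is encoded by mitochondrial DNA, and assembly factors put the parts together without staying in the finished enzyme. Acinar cells need this ATP for enzyme synthesis and secretion, and loss of mitochondrial function is a known feature of pancreatitis.

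Each library held an estimated 3297150 to 3962060 reads in saline mice, 6900100 to 8836410 in AP mice and 8820930 to 10826700 with pretreatment, so low genes were measured least precisely in saline mice. Values are TPM, transcript levels relative to gene length and to the library total. A set of 15 genes above 1% of any library took 27.55% to 30.4% of all TPM in saline mice, 16.7% to 19.0% in AP mice and 15.4% to 16.3% with pretreatment. The median of all 16814 tested genes was 0.45 higher on the log2 scale in AP than in saline mice, and 0.04 higher after median-of-ratios scaling, which sets the typical gene equal between libraries. Of 30 acinar markers 10 were among the listed genes. Digestive enzyme genes such as Cpa1, Cel, Pnlip and Prss2 were not listed, so TPM and shares of all TPM leave them out. The summed TPM of the 10 acinar markers listed was 135822 to 147549 in saline mice, 45847 to 65531 in AP mice and 43008 to 44842 with pretreatment. That of 12 macrophage and monocyte markers was 389 to 586, 2514 to 2765 and 419 to 514. The sum of 10 ductal markers was 2249 and 2608 TPM in saline mice, 33763 and 36182 in AP mice and 31958 and 25016 with pretreatment. Of the 10, 8 were higher by at least 2-fold in AP than in saline mice (18.2% of all tested genes were), and 6 after median-of-ratios scaling (9.0% of all). In bulk tissue, fewer cells of a type and less RNA per cell cannot be told apart, and the part of the cell mixture in the results that follow was not tested.

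Together the 97 members made up 1.74% and 1.90% of all TPM in saline mice, 1.63% and 1.78% in AP mice and 1.83% and 2.09% with pretreatment. The ranges of the saline and AP mice overlapped. By level, 72 members had at least 100 estimated reads in every library, and 10 had under 20 in at least 1 library.

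The promoters of 3 members that changed in AP mice are shown first, to set the sequence beside the values. For 79 members a window in the RefSeq promoter table of build GRCm38.p6 could be matched by symbol. Each run is the 250 bases before the annotated start, 5′ to 3′ on the strand of the gene, and capitals mark matches to any of 3 strings of letters, searched on both strands. These strings are GCATGCGC (the core of the site of NRF1, a regulator of respiratory genes), CCGGAAG (the core of the site of ETS factors such as GABPA, likewise a regulator of respiratory genes) and TGACGTCA (the cAMP response element).
Cycs, cytochrome c, higher in AP mice, chr6:50566570-50566819, minus strand: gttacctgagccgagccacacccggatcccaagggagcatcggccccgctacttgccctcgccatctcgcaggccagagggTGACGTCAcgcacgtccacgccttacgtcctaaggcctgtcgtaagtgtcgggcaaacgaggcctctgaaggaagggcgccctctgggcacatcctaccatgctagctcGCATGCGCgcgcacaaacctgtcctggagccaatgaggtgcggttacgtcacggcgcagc
Ndufaf1, a complex I assembly factor, higher in AP mice, chr2:119662835-119663084, minus strand: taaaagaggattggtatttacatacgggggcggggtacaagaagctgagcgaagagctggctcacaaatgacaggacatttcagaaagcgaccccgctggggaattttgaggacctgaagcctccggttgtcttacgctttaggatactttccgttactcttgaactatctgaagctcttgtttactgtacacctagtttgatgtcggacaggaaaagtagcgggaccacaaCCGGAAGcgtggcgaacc
Ndufa1, a complex I subunit, lower in AP mice, chrX:37191239-37191488, minus strand: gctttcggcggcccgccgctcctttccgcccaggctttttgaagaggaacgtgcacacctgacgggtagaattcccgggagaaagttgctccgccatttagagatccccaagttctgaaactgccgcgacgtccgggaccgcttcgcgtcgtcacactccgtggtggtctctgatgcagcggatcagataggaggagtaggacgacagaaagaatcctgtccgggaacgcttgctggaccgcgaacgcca

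In Cycs the NRF1 string began 60 bases before the start and the cAMP response element 169 bases before it. The ETS string stood 18 bases before the start of Ndufaf1, and the window of Ndufa1 held none of the 3 strings. Those of Ndufaf7, which was higher in AP mice, and Atp5g1, which was lower, held none either. Sdhb, a complex II gene that was lower in AP mice, held the NRF1 string 54 bases before its start. Among the 84 windows of the 79 members, 10 held the NRF1 string (11.9%), 14 the ETS string (16.7%) and 5 the cAMP response element (5.95%). Of all 32851 windows of the table, 2.26%, 6.91% and 1.55% held them. The NRF1 string was thus in the window of a gene that was higher and of a gene that was lower in AP mice. These are matches of letters, not measured binding sites.

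The first comparison, AP against saline mice, asks how caerulein changed these genes. At any fold, cytochrome c and 5 of 10 assembly factors were higher in AP mice. Of the 78 genes of complexes I to V outside the restricted isoforms, 5 were higher, 10 were lower and the rest did not pass. These 78 include 2 factors, Atp5s, which was 1 of the 5, and Cox7a2l. Of the 95 members tested, 5 were higher by at least 2-fold at an adjusted p of 0.05 (5.26%), where 18.2% of all tested genes were. In the other direction 1 member was lower by at least 2-fold, where 4.03% of all tested genes were. At any fold, 11 members were higher (11.6%, against 33.0% of all tested genes) and 11 were lower (11.6%, against 7.39%). The median log2 change of the members was 0.00 beside 0.45 for all tested genes, and 81 of the 95 lay below that median.

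After median-of-ratios scaling the members' median was -0.45 beside 0.04 for all tested genes. With it 0 members were higher by at least 2-fold (9.0% of all tested genes were) and 8 were lower (7.54% of all). At any fold 3 members were higher, Cycs, Ndufaf3 and Ndufaf7 (16.7% of all tested genes were), and 46 were lower (48.4% of the members, against 15.6% of all). Below the median of all genes lay 82 members with this scaling and 81 without. A scaling shifts all genes by nearly the same amount, so this near match had to follow. The number of members called lower did depend on the scaling. The counts also depended on single libraries: at any fold they were 5 higher and 8 lower without saline replicate 1, 3 and 2 without AP replicate 1, 2 and 4 without AP replicate 2, 13 and 6 without saline replicate 2, and 7 higher without either polyI:C AP replicate. Cycs, Ndufaf7, Ndufa1 and Ndufb9 were the 4 members whose call held whichever of the 6 libraries was left out.

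**Figure D1:**
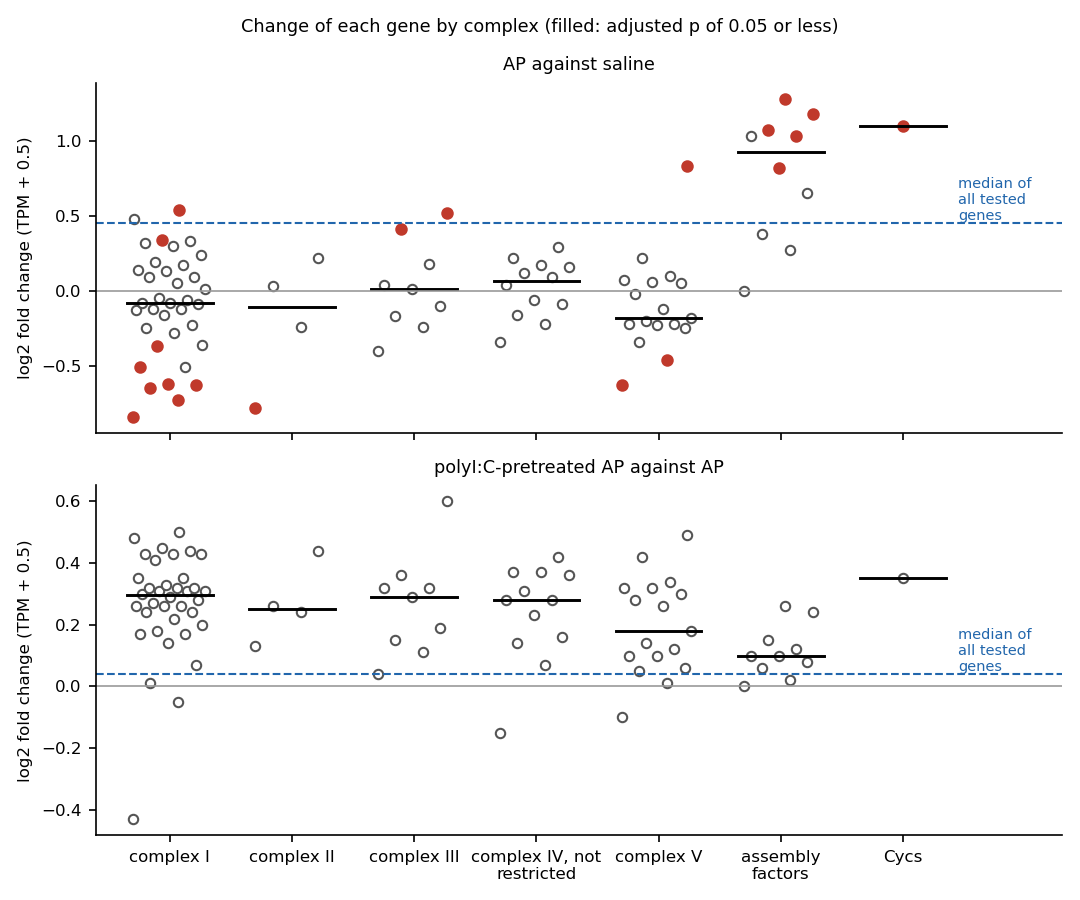
Log2 fold change of each tested member by complex, on the log2(TPM + 0.5) scale, for AP against saline mice (top) and polyI:C-pretreated AP against AP mice (bottom). Filled points passed an adjusted p of 0.05 in limma, black bars are medians of a complex, the dashed line is the median of all tested genes, and the 8 restricted isoforms of complex IV are left out. In the top panel most subunits lie below the dashed line and most assembly factors and Cycs above it, and in the bottom panel no point is filled.

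Cytochrome c, encoded by Cycs (chromosome 6, 50562563 to 50566538, GRCm38), is the soluble carrier between complexes III and IV and is also known for its release during apoptosis. Its TPM was 40.4 and 44.3 in saline mice, 88.8 and 93.5 in AP mice and 98.7 and 136 with pretreatment. Both groups given caerulein lay above the saline mice without overlap. The log2 change in AP mice was 1.10 ± 0.16 (SE, n = 2 and 2, adjusted p = 0.00223, limma), and after median-of-ratios scaling it was 0.65 with an adjusted p of 0.0284. It passed the threshold with any of the 6 libraries left out. Of its 100-base stretches 22.6% also occur in other genes, Gm10053, Gm10108 and Gm13772 foremost, so part of its reads could belong to these copies.

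The 10 assembly factors had a median log2 change of 0.92, with 7 above the median of all tested genes. At any fold 5 were higher and 0 lower, where 33.0% and 7.39% of all tested genes were. Ndufaf1, which helps build the membrane arm of complex I, was at 11.8 and 17.6 TPM in saline mice, 31.1 and 35.8 in AP mice and 36.0 and 34.6 with pretreatment. Its change in AP mice was 1.18 ± 0.24 (adjusted p = 0.00756, limma), and after median-of-ratios scaling 0.74 (adjusted p = 0.0555). Ndufaf7, another assembly factor of complex I, was at 27.1 and 21.2 TPM in saline mice, 46.1 and 53.2 in AP mice and 48.4 and 50.8 with pretreatment. Its change was 1.03 ± 0.15 (adjusted p = 0.00237, limma) and passed with any library left out. The values of the pancreatitis groups overlapped for both genes.

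Ndufaf3, a further complex I assembly factor, was at 10.2 and 11.1 TPM in saline mice, 21.7 and 24.4 in AP mice and 25.3 and 24.1 with pretreatment, a change of 1.07 ± 0.19 in AP mice (adjusted p = 0.00477, limma). Ndufaf6 changed by 1.28 ± 0.34 (adjusted p = 0.0243, limma) on 6.8 and 6.4 estimated reads in saline mice, and it did not pass with any one of the 6 libraries left out (adjusted p from 0.0515 to 0.174). Uqcc1, an assembly factor of complex III, rose by 0.82 ± 0.19 (adjusted p = 0.0127, limma). Ndufaf2, an assembly factor that acts late on complex I, was at 35.3 and 65.7 TPM in saline mice and 71.0 and 80.7 in AP mice and did not pass. As 65.6% of its exon length is overlapped by B230220B15Rik on the other strand, its value is uncertain. Ndufaf4 (19.3 and 24.7 TPM in saline mice, 18.7 and 25.3 in AP mice) had the smallest change of the group, and Uqcc2, of complex III assembly and the highest of the group (97.3 and 123 TPM, then 132 and 153), did not pass. The rise was thus not shared by all assembly factors. After median-of-ratios scaling Ndufaf3 and Ndufaf7 alone of the 10 passed, near the background of 16.7% of all tested genes called higher.

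**Figure D2:**
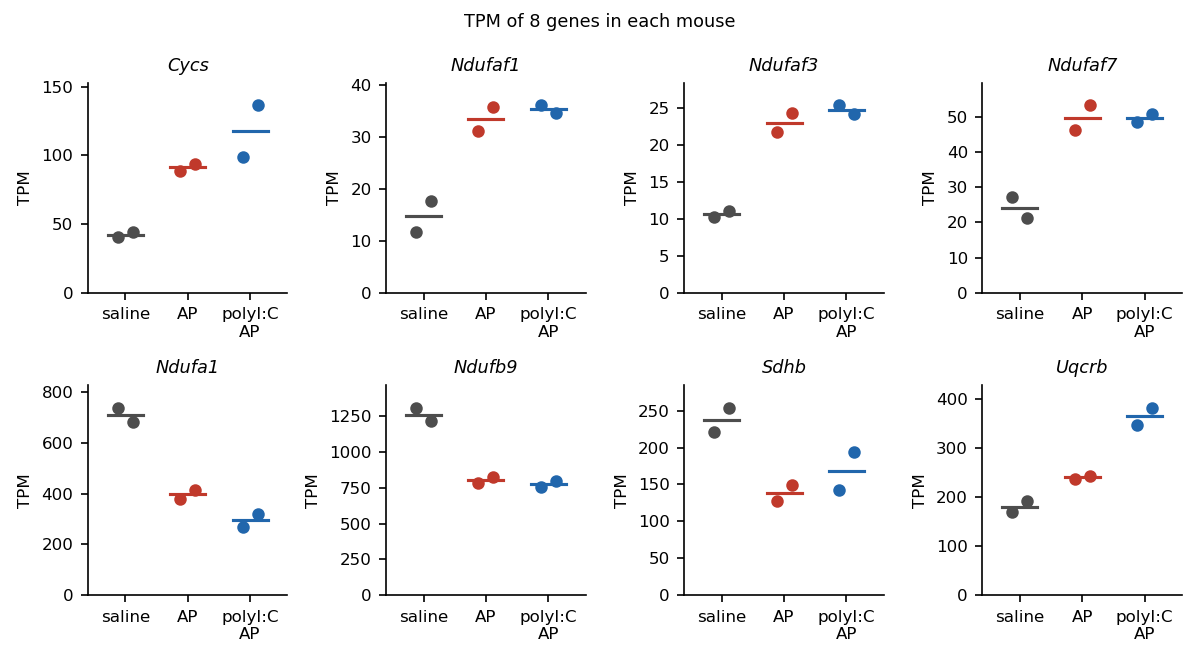
TPM of 8 members in each mouse (points, axes from 0) with the group mean (bar, n = 2) for each of the 3 groups. Cycs, Ndufaf1, Ndufaf3 and Ndufaf7 lie higher in both pancreatitis groups than in saline mice, Ndufa1, Ndufb9 and Sdhb lie lower, and Uqcrb is highest with pretreatment.

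In complex I, the 7 core subunits that carry the electron path had a median change of -0.09 and the 29 accessory subunits one of -0.08. Of the 36 genes, 2 were higher and 7 lower at any fold (33.0% and 7.39% of all tested genes were), and 34 lay below the median of all tested genes. After median-of-ratios scaling 0 were higher and 19 lower (16.7% and 15.6% of all). Ndufa1 (chromosome X, 37187588 to 37191163), a small membrane subunit needed for assembly, fell the most. Its TPM was 739 and 681 in saline mice, 378 and 416 in AP mice and 269 and 321 with pretreatment, with no overlap between any of the groups. The change in AP mice was -0.84 ± 0.13 (adjusted p = 0.0028, limma), and it held in all 6 fits that left out a library.

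Ndufb9, an accessory subunit with a LYR motif and the most abundant of those that fell, was at 1311 and 1215 TPM in saline mice, 785 and 823 in AP mice and 755 and 799 with pretreatment. Its change in AP mice was -0.65 ± 0.09 (adjusted p = 0.0017, limma), and it likewise held with any library left out. The overlapping gene Gm49356 covers 19.5% of its exon length on the same strand. The other 5 that fell, Ndufb11 (-0.73), Ndufb10 (-0.63), Ndufv3 (-0.62), Ndufb5 (-0.51) and Ndufs6 (-0.37), are accessory subunits too. Ndufs6 was at 175 and 171 TPM in saline mice, 138 and 130 in AP mice and 180 and 200 with pretreatment.

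Against these, Ndufa8, an accessory subunit of the intermembrane space, rose from 112 and 116 TPM in saline mice to 177 and 158 in AP mice (0.54 ± 0.14, adjusted p = 0.0218, limma). Ndufs1, the largest core subunit, with iron-sulfur clusters of the electron path, rose from 28.7 and 33.0 to 40.5 and 37.8 TPM (0.34 ± 0.11, adjusted p = 0.0457). After median-of-ratios scaling neither passed, at 0.10 and -0.10, and Ndufs1 also lost its call in 5 of the 6 fits that left out a library. Ndufa6, with the highest mean of complex I, was at 1185 and 1336 TPM in saline mice and 1127 and 1288 in AP mice, ranges that overlap.

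Of the 4 complex II genes 1 was lower in AP mice (7.39% of all tested genes were) and 3 did not pass. After median-of-ratios scaling 3 were lower (15.6% of all), and with voom on estimated reads 2 were (1827 of 16778 genes). Sdhb was at 222 and 254 TPM in saline mice, 128 and 150 in AP mice and 142 and 193 with pretreatment, a change of -0.78 ± 0.17 in AP mice (adjusted p = 0.0111, limma) that passed in 3 of the 6 fits that left out a library. Sdha, the flavoprotein that oxidises succinate, was at 134 and 147 TPM in saline mice and 114 and 123 in AP mice and did not pass (-0.24 ± 0.13, adjusted p = 0.173). The membrane anchors Sdhc (89.4 and 97.3, then 92.6 and 97.6 TPM) and Sdhd (279 and 337, then 345 and 372 TPM) did not pass either. The difference between Sdhb and the other 3 genes was not tested.

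In complex III, 2 of 9 genes were higher and 0 lower at any fold (33.0% and 7.39% of all tested genes were), and 8 lay below the median of all tested genes. After median-of-ratios scaling 0 were higher and 5 lower (16.7% and 15.6% of all), and with voom on estimated reads 0 and 1 (3360 and 1827 of 16778 genes). Uqcr10 rose by 0.52 ± 0.17 (adjusted p = 0.0478) and Uqcrb, the ubiquinone-binding protein, by 0.41 ± 0.11 (adjusted p = 0.0257, limma), from 170 and 191 TPM in saline mice to 238 and 243 in AP mice. After median-of-ratios scaling their changes were 0.07 and -0.04 and neither passed. Uqcr11 had the lowest change of the complex and did not pass (-0.40 ± 0.20, adjusted p = 0.159). Cyc1, the cytochrome c1 subunit, was at 225 and 209 TPM in saline mice and 250 and 243 in AP mice (adjusted p = 0.204), and Uqcrfs1, the Rieske iron-sulfur protein and the highest of the complex, at 435 and 486, then 389 and 431 TPM.

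The 11 common subunits of complex IV had changes between -0.34 and 0.29, and none passed with TPM as deposited. After median-of-ratios scaling 4 were lower, where 15.6% of all tested genes were. Among them Cox4i1, Cox6a1, Cox6b1, Cox7a2, Cox7b and Cox8a had changes of -0.16, 0.04, 0.16, -0.06, -0.34 and -0.22. Cox7a2l, a factor of supercomplex assembly, was the highest gene of the complex at 1092 and 1346 TPM in saline mice and 1117 and 1156 in AP mice. Ndufa4, once assigned to complex I and now known as a subunit of complex IV, was at 125 and 104 TPM in saline mice, 121 and 160 in AP mice and 153 and 173 with pretreatment, and did not pass (0.29 ± 0.17, adjusted p = 0.228).

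The tissue-restricted or induced isoforms Cox4i2, Cox6a2, Cox6b2, Cox7a1, Cox7b2, Cox8b, Cox8c and Ndufa4l2 rested on few reads. Cox8c, known from testis, was at 13.0 and 14.2 TPM in saline mice, 0.983 and 1.55 in AP mice and 1.60 and 3.19 with pretreatment. These values stand for 8.6 and 7.7 estimated reads, 1 and 1.9, and 1.9 and 4.8. It was the 1 member lower by at least 2-fold (adjusted p = 0.00882, limma), but the fitted log2 change of -3.01 depends on the added pseudocount, and the call was lost without AP replicate 1 (adjusted p = 0.0585). Cox4i2, a hypoxia-inducible isoform, was at 0.589 and 0 TPM in saline mice, 0.805 and 3.50 in AP mice and 2.95 and 6.26 with pretreatment, the last value on 16.2 estimated reads.

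Cox7a1, the muscle and heart isoform, stayed between 2.39 and 5.77 TPM in 5 mice and reached 25.3 in polyI:C-pretreated AP replicate 2, on 44.6 estimated reads. Cox8b, likewise known from muscle and brown fat, was highest in the same mouse at 8.42 TPM, and between 0 and 3.81 elsewhere. The summed TPM of the 7 striated muscle markers listed was 8.35 in that mouse and 4.64 to 9.05 in the others, and that of 7 adipocyte markers was 66.4 there and 43.5 to 110 in the others. Cox7b2 was at 2.53 and 10.9 TPM in saline mice, 0.864 and 1.37 in AP mice and 0 and 0.560 with pretreatment. Ndufa4l2, another hypoxia-inducible gene, was at 4.28 and 4.39, then 1.95 and 2.31, then 0.795 and 1.58 TPM. Cox6a2 (0 to 1.63 TPM) and Cox6b2 (0 to 1.56 TPM) had means under 1 TPM and were not tested.

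**Figure D3:**
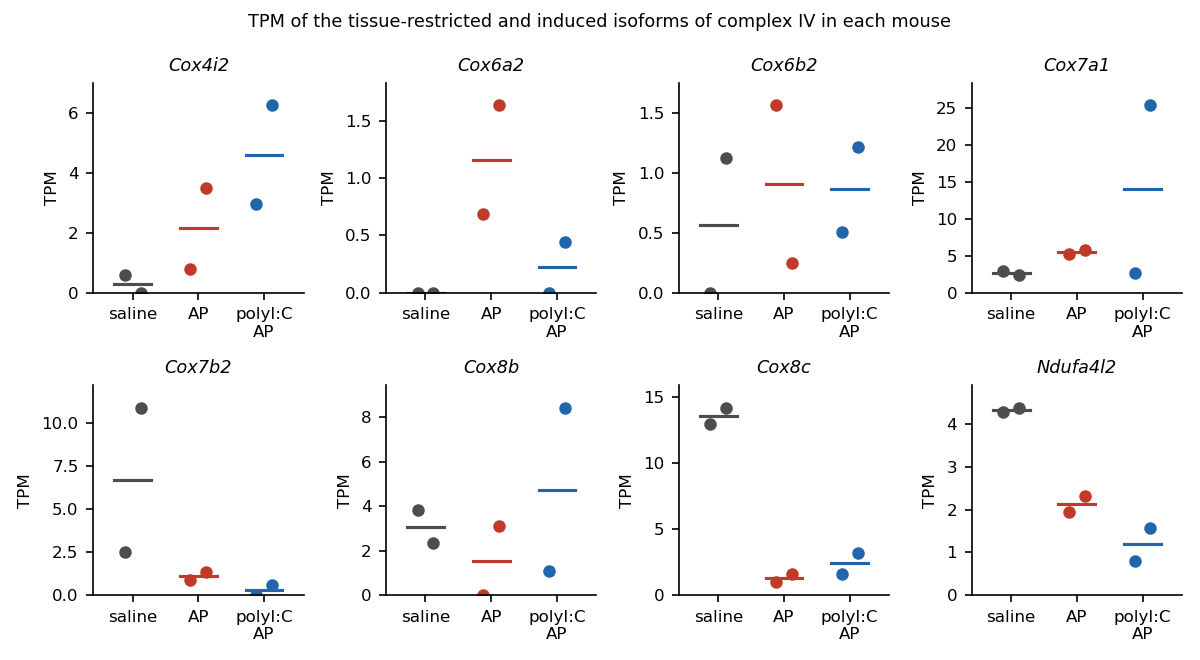
TPM of the 8 restricted isoforms of complex IV in each mouse (points, axes from 0) with the group mean (bar, n = 2). No value is above 25.3 TPM, Cox8c is higher in both saline mice than in the other 4, and the single high value of Cox7a1 belongs to 1 polyI:C-pretreated AP mouse.

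In complex V, 16 of 17 genes lay below the median of all tested genes. After median-of-ratios scaling 13 were lower and 0 higher, where 15.6% and 16.7% of all tested genes were. Atp5g1, which encodes the c subunit of the rotor ring, fell from 45.4 and 42.8 TPM in saline mice to 27.2 and 29.4 in AP mice (-0.63 ± 0.14, adjusted p = 0.0118, limma) and was at 25.5 and 32.0 with pretreatment. The genes Atp5g2 and Atp5g3 encode the same mature c subunit and did not pass, with changes of -0.22 and 0.22. Atp5o, a peripheral stalk subunit, changed by -0.46 (adjusted p = 0.0403, limma) and shares 27.9% of its 100-base stretches with other entries. Atp5s, a coupling factor of low level, rose from 8.76 and 12.5 TPM to 19.2 and 18.7 (0.83 ± 0.22, adjusted p = 0.0252, limma), a call that was lost in 5 of the 6 fits that left out a library. Atp5mpl, the highest of the complex, was at 1102 and 1156 TPM in saline mice and 1007 and 1065 in AP mice.

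Summed over its genes, complex I was at 6813 and 7164 TPM in saline mice, 5774 and 6309 in AP mice and 6564 and 7411 with pretreatment. The AP mice lay below both other groups. Most of the gap between the saline and AP means (6988 and 6042 TPM) came from 2 genes. These were Ndufb9, with means of 1263 and 804 TPM, and Ndufa1, with means of 710 and 397 TPM. The 7 core subunits summed to 728 and 707 TPM in saline mice and 679 and 760 in AP mice, which overlap. The AP mean was 0.865 ± 0.0622 times the saline mean for complex I (SD from 2 mice a group), 0.911 ± 0.108 for complex II, 0.991 ± 0.105 for complex III, 0.956 ± 0.0989 for complex IV and 0.953 ± 0.0775 for complex V. For complexes II to V the saline and AP mice overlapped. After median-of-ratios scaling these 5 ratios lay between 0.632 and 0.724. The 10 assembly factors summed to 237 and 317 TPM in saline mice, 382 and 450 in AP mice and 446 and 478 with pretreatment. With 2 mice a group no exact permutation test can reach 0.05, and the sums were not tested.

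**Figure D4:**
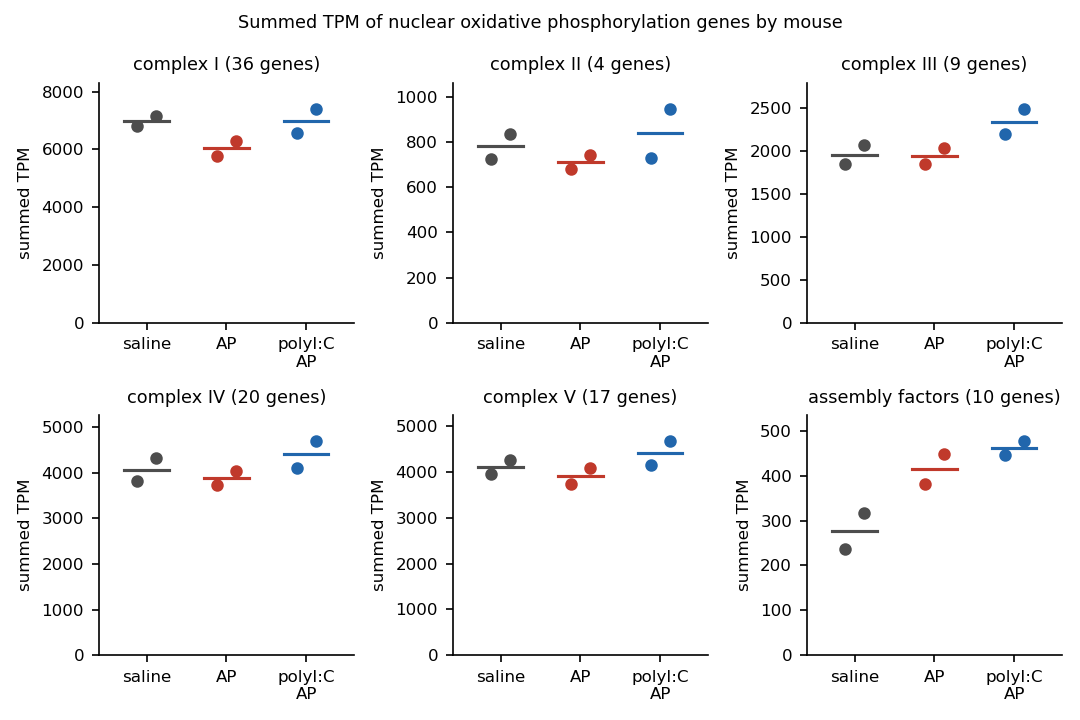
Summed TPM of the genes of each complex and of the assembly factors in each mouse (points, axes from 0) with the group mean (bar, n = 2) for each of the 3 groups. The complex I sum of both AP mice lies below the other 4 mice, and the assembly factor sum of both saline mice lies below the other 4. Most of the complex I gap between saline and AP mice is from Ndufb9 and Ndufa1.

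**Figure D5:**
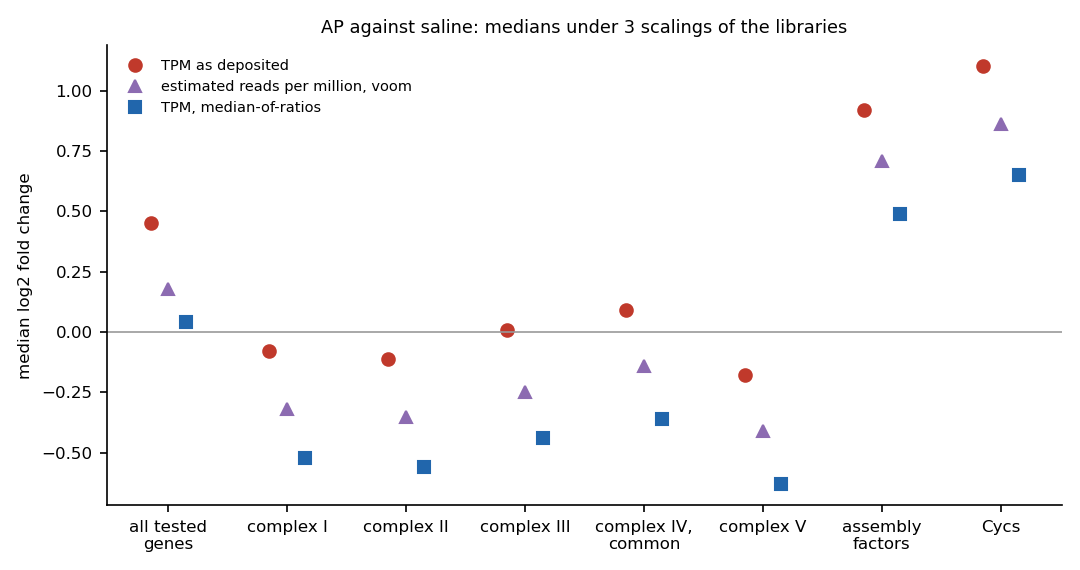
Median log2 fold change of AP against saline mice for all tested genes, each complex, the assembly factors and Cycs under 3 scalings of the libraries (TPM as deposited, voom on estimated reads per library total, and TPM after median-of-ratios scaling). The level of all points shifts with the scaling, from 0.45 to 0.04 for all tested genes. In each, complexes I to V lie below and the assembly factors and Cycs above the point of all tested genes. A scaling shifts all genes by nearly the same amount, so these positions could hardly differ between scalings.

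The second comparison, polyI:C-pretreated AP against AP mice, asks whether pretreatment changed these genes in pancreatitis. No member passed an adjusted p of 0.05 in limma. The count was 0 in both directions at 2-fold, where 0.440% of all tested genes were higher and 0.404% lower, and 0 at any fold, where 0.714% were higher and 0.517% lower. At an unadjusted p of 0.05, 20 members were higher and 1 was lower (21.1% and 1.05%, against 7.83% and 6.07% of all tested genes), and voom on estimated reads called 1 member higher, Uqcrb (adjusted p = 0.0284). The median change was 0.26 beside 0.04 for all tested genes, 85 of 95 members lay above that median, and 57 were higher in both pretreated mice than in either AP mouse (60% of the members, against 27.7% of all tested genes), with 5 lower in both (22.1% of all). Without polyI:C AP replicate 2 the members' median was 0.14, and without polyI:C AP replicate 1 it was 0.36, so the size of the difference depended on the mouse.

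Uqcrb came closest to the threshold. It was at 348 and 383 TPM with pretreatment against 238 and 243 in AP mice and 170 and 191 in saline mice, with no overlap between any of the groups (0.60 ± 0.11 against AP, adjusted p = 0.0667, limma). Ndufs6 had the largest difference in complex I (0.50 ± 0.12, adjusted p = 0.111), Sdha in complex II (0.44 ± 0.13, adjusted p = 0.182) and Atp5k in complex V (0.49 ± 0.17, adjusted p = 0.268). Sdhd had the smallest in complex II (0.13 ± 0.17). Ndufa1 went the other way, at -0.43 ± 0.13 (adjusted p = 0.204), as did Atp5l at -0.10 ± 0.14 and Cox7a2l at -0.15 ± 0.12. The medians were 0.30 for complex I, 0.25 for complex II, 0.29 for complex III, 0.28 for the common subunits of complex IV, 0.18 for complex V and 0.10 for the assembly factors, beside 0.04 for all tested genes. The sums of complexes I to V with pretreatment were 1.1 to 1.21 times those in AP mice over the 3 scalings of TPM, with SDs of the ratio between 0.0945 and 0.245. The macrophage and monocyte marker sum, given above, was 419 to 514 TPM with pretreatment against 2514 to 2765 in AP mice. The 10 acinar markers had a median difference of 0.44 beside 0.04 for all tested genes, with 2 higher and 0 lower at any fold (0.714% and 0.517% of all tested genes were). Bhlha15, a transcription factor of secretory cells, was at 391 and 326 TPM in saline mice, 53.6 and 46.4 in AP mice and 161 and 171 with pretreatment (1.73 against AP, adjusted p = 0.00397, limma, a call kept in 2 of the 6 fits that left out a library). Rbpjl, another acinar transcription factor, was at 238 and 195, then 104 and 79.8, then 196 and 191 TPM (1.08, adjusted p = 0.0335, a call kept in 0 of the 6). The acinar sum given above does not show this. Sycn and Spink1, secreted or granule proteins, make up most of it, and they went opposite ways. Sycn was at 31898 and 21348 TPM in AP mice and 14466 and 11044 with pretreatment, and Spink1 at 23568 and 19872, then 25577 and 28861. The means of Prss3, Prss1 and Ctrc were also lower with pretreatment than in AP mice, and those of Amy2a1, Ptf1a and Nr5a2 higher. The part of either marker list in these small differences was not tested.

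The third comparison, polyI:C-pretreated AP against saline mice, shares its saline mice with the first and its pretreated mice with the second, so it adds no independent sample. At 2-fold, 8 members were higher (16.9% of all tested genes were) and 3 lower (2.97% of all). At any fold 24 were higher (25.3% of the members, against 33.4% of all tested genes) and 6 lower (5.80% of all). The median was 0.25 beside 0.48. After median-of-ratios scaling 0 were higher and 6 lower at 2-fold (7.62% and 6.04% of all tested genes were), 4 higher and 24 lower at any fold (14.2% and 12.9% of all), and the median was -0.21.

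The 8 higher by at least 2-fold were Cycs (1.44 ± 0.16, adjusted p = 0.000852), Ndufaf1 (1.26), Ndufaf3 (1.18), Ndufaf6 (1.30), Ndufaf7 (1.03), Atp5s (1.17), Uqcrb (1.01) and Cox4i2. Cycs and Uqcrb also passed after median-of-ratios scaling (0.97 and 0.54, adjusted p = 0.0075 and 0.0169, limma), with Ndufaf3 and Ndufaf7. Those lower were Ndufa1 (-1.27 ± 0.13, adjusted p = 0.000638), Cox8c and Cox7b2, the latter on at most 7 estimated reads in any mouse. Cox4i2, with 0.7 and 0 estimated reads in saline mice, had an adjusted p of 0.0497 and did not pass with any one library left out. The counts at 2-fold fell to 2 higher without polyI:C AP replicate 2 and to 4 without saline replicate 1, and to 1 lower without saline replicate 2, polyI:C AP replicate 1 or polyI:C AP replicate 2. At any fold they were 7 higher without polyI:C AP replicate 2 and 2 lower without polyI:C AP replicate 1.

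Other genes of mitochondrial function were taken from lists outside the rule. Of the 13 subunits encoded by mitochondrial DNA, 11 were listed, with a median change of -0.99 in AP against saline mice (0.45 for all tested genes) and 1 call, mt-Nd6, at 227 and 157 TPM in saline mice, 84.8 and 88.4 in AP mice and 103 and 106 with pretreatment (-1.12 ± 0.20, adjusted p = 0.00499, limma). The sum of the 11 was 14517 and 8355 TPM in saline mice, 7646 and 6078 in AP mice and 5245 and 7552 with pretreatment, so saline replicate 1 stood above the rest. In this list mt-Nd3, mt-Co2, mt-Co3 and mt-Atp6 were between 1.01 and 26.2 TPM while mt-Co1 was between 3476 and 8609, and the first 4 are uncertain. The highest and lowest changes of the list were those of mt-Atp6 and mt-Co2, and neither passed. After median-of-ratios scaling 5 of the 11 were called lower, where 15.6% of all tested genes were.

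Of 35 other assembly factors tested, 12 were higher and 1 lower at any fold, with a median of 0.52. Of all tested genes 33.0% were higher and 7.39% lower, with a median of 0.45, so this list lay near the background. Sdhaf1, which helps insert the iron-sulfur clusters of Sdhb, rose from 1.93 and 2.03 TPM to 12.6 and 11.6 (2.34 ± 0.26, adjusted p = 0.00071, limma) while Sdhb itself fell. Cox18, Cox10 and Sco1, of complex IV assembly, also rose by at least 2-fold (1.63, 1.07 and 1.05). Cox15, of heme A synthesis, fell by 0.61 on the log2 scale in AP mice (adjusted p = 0.00782) and was higher in the pretreated than in AP mice (0.76 ± 0.12, adjusted p = 0.0468). It was the 1 call of the list in that comparison, at 54.5 and 45.2, then 33.2 and 31.7, then 56.0 and 54.5 TPM, and it passed in 1 of the 6 fits that left out a library. Cox16 had the lowest change (-0.89) and did not pass. After median-of-ratios scaling 5 of the 35 were higher and 4 lower, where 16.7% and 15.6% of all tested genes were.

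Of 77 mitochondrial ribosomal protein genes 54 were higher and 2 lower at any fold in AP mice (33.0% and 7.39% of all tested genes were), with a median of 0.66 beside 0.45, from Mrps6 at 1.92 to Mrpl42 at -0.42. After median-of-ratios scaling the counts were 20 and 3 (16.7% and 15.6% of all) and the median 0.22 beside 0.04. Among 15 tested regulators of the PGC-1 axis, which governs mitochondrial gene programmes, 4 were higher and 3 lower (33.0% and 7.39% of all tested genes were). Their median was 0.16 beside 0.45 for all tested genes. Ppargc1a, the coactivator PGC-1α, was at 9.41 and 5.74 TPM in saline mice, 1.76 and 2.33 in AP mice and 5.43 and 5.52 with pretreatment, a fall of 1.63 on the log2 scale in AP mice (adjusted p = 0.00395, limma) and a difference of 1.24 that did not pass between pretreated and AP mice (adjusted p = 0.103). Ppara, a nuclear receptor of fatty acid oxidation, fell from 13.2 and 15.6 to 3.12 and 2.94 TPM (-2.07 ± 0.21, adjusted p = 0.000546) and was at 6.12 and 6.79 with pretreatment. Gabpb1, a partner of GABPA, was the largest rise at 1.00. After median-of-ratios scaling the counts for this axis were 1 and 5 (16.7% and 15.6% of all) and the median -0.28 beside 0.04.

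Of 18 tricarboxylic acid cycle genes 8 were higher and 3 lower, with a median of 0.26 beside 0.45 for all tested genes, of which 33.0% were higher and 7.39% lower, from Dlst at 0.94 to Pcx, pyruvate carboxylase, at -1.15 (adjusted p = 0.00159). Idh2, mitochondrial isocitrate dehydrogenase, was lower in AP than in saline mice and lower again with pretreatment, at 207 and 238, then 149 and 147, then 87.8 and 95.1 TPM (-0.69 ± 0.11 against AP, adjusted p = 0.0434, limma), a call that did not hold with any one library left out. Of 8 mitochondrial antioxidant genes 2 were higher and 3 lower (33.0% and 7.39% of all tested genes were), with a median of 0.23. They ranged from Gpx4 at 0.79 to Nnt, the transhydrogenase that makes NADPH, which fell from 134 and 121 to 30.7 and 25.4 TPM (-2.17 ± 0.13, adjusted p = 9.1e-05). Of the 7 carriers tested, with a median of 0.13, Slc25a4 and Ucp2 rose by at least 2-fold (1.91 and 1.64), Vdac3 rose by 0.97, and Slc25a5, the more abundant adenine nucleotide carrier at 608 and 657 TPM in saline mice, fell by 0.58 (adjusted p = 0.0186). After median-of-ratios scaling the counts of higher and lower genes were 2 and 7 for the tricarboxylic acid cycle, 0 and 3 for the antioxidants and 3 and 3 for the carriers, beside 16.7% and 15.6% of all tested genes.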

How the data were processed

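RNA-seq libraries of whole pancreas from 6 mice, 2 a group, were compared. Per the labels and the study's methods, the authors used Trimmomatic for trimming, STAR for mapping to mm10 and HTSeq for counting, and ran DESeq2 for their own comparisons. The deposited values are TPM, scaled by the authors to the same total in each library. How counts became TPM, the gene lengths and the strand setting of the counting are not given in the sources used here. The study's methods name a stranded mRNA kit, and the labels name this and a directional kit with ribosomal depletion. Whether reads of genes that overlap on opposite strands were told apart in counting is therefore unknown.

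Gene types, coordinates and exon lengths were taken from GENCODE M21 (GRCm38), which held 22490 of the 22556 listed genes. Reads per library on the listed genes were estimated from the spacing of low values of TPM times exon length. Of values under 20 reads, 51.2% to 62.5% lay within 0.1 of a whole read, so these reads are estimates and no count test was used for the main result. log2(TPM + 0.5) was fitted with limma 3.58.1 in R 4.3.3 over all 6 libraries and the 16814 genes that averaged 1 TPM or more, with a prior variance that followed TPM times exon length and Benjamini-Hochberg adjustment over all tested genes. Folds are on that scale, which understates changes of low genes. Calls were an adjusted p of at most 0.05, with at least 2-fold or at any fold. p-values measure the spread between these mice. On simulated data for AP against saline, with 15504 genes tested, 181 of 196 tested genes changed 4-fold were recovered, with 19 false calls. The simulation changed only 200 genes, as many up as down and all 4-fold. It held no shift of all genes and no smaller changes, so it does not test calls that depend on these.

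The members and lists were chosen with earlier results of these data known. Named were members past 2-fold in any comparison, the highest, most changed and least changed member of each complex, all of complex II, Cyc1, Cycs, the complex IV isoforms, Ndufa4 and Ndufa4l2, members under 1 TPM, and the called or extreme genes of the lists. Other members named, among them Ndufb5, Ndufb9, Ndufb10, Ndufb11, Ndufv3, Ndufs1, Uqcc1, Atp5o, Atp5g2 and Atp5g3, were chosen after their values were seen. So were the acinar genes Sycn, Spink1, Prss1, Prss3, Ctrc, Amy2a1, Ptf1a and Nr5a2. Alternatives were 2 other scalings, other pseudocounts and filters, another prior, a block for the replicate number, and fits without each library. voom on estimated reads, and median-of-ratios scaling with the block, were chosen after seeing the data. Each file held 1 mouse, and 0 other columns of sample values were left out. The replicate numbers are not stated to mark shared handling, and no library preparation batch was given.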

Additional observations from a re-analysis of the deposited data

How the results depend on the processing

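Scaling moved the AP against saline results. Members higher by at least 2-fold numbered 0 with median-of-ratios scaling, with TPM rescaled without genes above 1%, with median-of-ratios scaling and the replicate block, and with voom on estimated reads, and those lower 8, 2, 8 and 3. In the same order, 3, 5, 2 and 4 were higher and 46, 29, 49 and 27 lower at any fold, and the median was -0.45, -0.21, -0.45 and -0.25. For polyI:C AP against saline, in that order, 0, 2, 0 and 2 were higher by 2-fold, 4, 9, 4 and 6 higher and 24, 16, 27 and 17 lower at any fold, and the median was -0.21, 0.02, -0.21 and -0.01. Members lower by 2-fold numbered 6 with median-of-ratios scaling and 5 with the block added. For polyI:C AP against AP, voom called 1 member higher at any fold. The AP to saline ratio of the sums of complexes I to V was 0.632, 0.666, 0.724, 0.699 and 0.697 with median-of-ratios scaling, and 0.747, 0.788, 0.857, 0.827 and 0.824 without genes above 1%. The reversals followed the shift of all genes that scaling makes. With median-of-ratios scaling, with or without the block, Sdhc (-0.42) and Uqcrb (-0.04) reversed in AP against saline and Cox6a1 (-0.01), Cox6b1 (-0.03) and Cox7a2 (-0.38) in polyI:C AP against saline. Cox7b (-0.46), Ndufa6 (-0.32) and Uqcrfs1 (-0.46) were counted as reversed there only with the block. The block leaves the log2 changes as they are and alters only their SE and p.

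Leaving out 1 library gave 1 to 6 members higher and 0 to 1 lower by 2-fold in AP against saline, 2 to 13 and 2 to 11 at any fold, and a median from -0.08 to 0.04. For polyI:C AP against saline these were 2 to 8 and 1 to 2, 7 to 20 and 2 to 7, and 0.14 to 0.34. For polyI:C AP against AP all 4 counts stayed 0 and the median lay between 0.14 and 0.36. A group left with 1 mouse was assumed to vary like the others. The replicate numbers did not pair the mice (correlations of same-numbered deviations 0.0075, -0.00385 and 0.0351). With the replicate block 10 members were higher and 14 lower at any fold in AP against saline, 28 and 8 in polyI:C AP against saline and 0 in polyI:C AP against AP. With 3297150 and 3962060 estimated reads, the saline libraries limit the low genes.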
